A study of Mus musculus with 16 samples.

Results

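The miR-297, miR-466, miR-467 and miR-669 miRNAs are a large set of repeat-derived mouse miRNAs whose genes lie mostly within *Sfmbt2*, a Polycomb group gene on chromosome 2. The members were chosen by their name on the array, which had to be miR-297, miR-466, miR-467 or miR-669 with no further digit, and these 61 miRNAs were among 1881 mature mouse miRNAs on the array. Detection is given for all 61. Signal and genotype change are given for the 14 that the scanner software detected on at least 8 of the 16 arrays, out of 495 such miRNAs in all. The arrays held RNA from the wall of the lateral ventricle (LV) of 8-month-old male mice, 1 mouse per array. The control group was 8 WT littermates, and the other group was 8 *Dgcr8*+/- mice, which carry a heterozygous deletion of *Dgcr8*. Both groups were on a C57BL/6J background, and the labels name no treatment. The array has no probe for *Dgcr8*, so the genotype labels could not be checked against the deleted gene.

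Dgcr8 is the RNA-binding partner of the nuclease Drosha, and together they cut miRNA hairpins out of long primary transcripts before Dicer releases the mature miRNA. The *Sfmbt2* cluster is found in rodents and packs many similar hairpins, rich in alternating U and G or A and C, into an intron of its host gene. It is known mainly from placenta and embryonic stem cells, where *Sfmbt2* is expressed from the paternal allele.

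In the RefSeq gene table of GRCm38.p6, 81 genes carry a name of these 4 families. Of these, 71 lie within *Sfmbt2* and 10 lie elsewhere, on chromosomes 3, 5, 7, 9, 10, 11 and 13. The name alone therefore does not place a member in the cluster. Of the 14 tested members, 8 have genes only within *Sfmbt2*, 5 have a gene only on another chromosome and miR-466f-3p has genes in both places. MiR-467a-3p is named for 10 gene copies within *Sfmbt2*, and an array signal cannot say which copy it came from. Whether the probes of a member also bind its near-identical relatives was not tested.

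RefSeq gave a mature sequence of the same name for 4 of the 14 tested members. They are shown 5′ to 3′ because they carry the repeats that mark these families, with the seed (bases 2 to 8, which pairs with target RNAs) in capitals.
miR-466i-3p: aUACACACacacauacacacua
miR-466q: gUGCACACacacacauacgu
miR-467f: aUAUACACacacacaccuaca
miR-669n: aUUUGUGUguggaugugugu

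The first 3 of these sequences hold runs of alternating A and C of 11, 12 and 12 bases, whereas miR-669n holds a run of alternating U and G of 8 bases. None of them shared a seed with another. The genes of all 4 lie outside *Sfmbt2*. On GRCm38.p6 the mature miR-466i-3p is at chr13:17747552-17747573 on the plus strand within *Cdk13*, and miR-466q is at chr3:28419988-28420007 on the plus strand within *Tnik*. MiR-467f is at chr11:69635419-69635439 on the minus strand within *Fxr2*, and miR-669n is at chr3:115979905-115979924 on the plus strand within *Slc30a7*. The gene table gives gene spans only, so exon and intron were not told apart here.

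RefSeq also held the sequences of 3 members that were detected on no array. They are shown because they are built of the same repeats as the detected ones. Their genes lie outside *Sfmbt2* as well, on chromosomes 10, 3 and 5.
miR-466j: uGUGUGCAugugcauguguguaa
miR-466k: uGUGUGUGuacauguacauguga
miR-467g: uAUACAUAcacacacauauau

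A search of the mature strand for UGUGUGU or GUGUGUG, which overlap each other, found 3 of these 7 sequences, and 13 of all 1679 mature sequences in the table held it (0.774%). A search for ACACACA or CACACAC found the other 4, and 6 of 1679 held it (0.357%). Members with either repeat were thus found among both the detected and the undetected sequences. None of the 7 has a gene within *Sfmbt2*, so this does not describe the sequences of the cluster there.

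Most members gave no detectable signal in the LV wall. Of the 61, 42 were detected on no array (68.9%, against 70.0% of all 1881 miRNAs), 5 were detected on 1 to 7 arrays and 14 passed the detection limit. By family, 6 of 23 miR-466 members, 4 of 12 miR-467 members, 4 of 23 miR-669 members and 0 of 3 miR-297 members passed it. By arm, 7 of 26 members from the 3′ arm of the hairpin passed, 3 of 25 from the 5′ arm and 4 of 10 whose name gives no arm. Single arrays detected 15 to 19 members in WT mice (median 17) and 12 to 14 in *Dgcr8*+/- mice (median 13). These counts are not tested, because detection was used to choose the tested members. The arrays of *Dgcr8*+/- mice also detected fewer miRNAs in all, at most 492 on any array against 495 to 540 in WT mice.

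**Figure D1:**
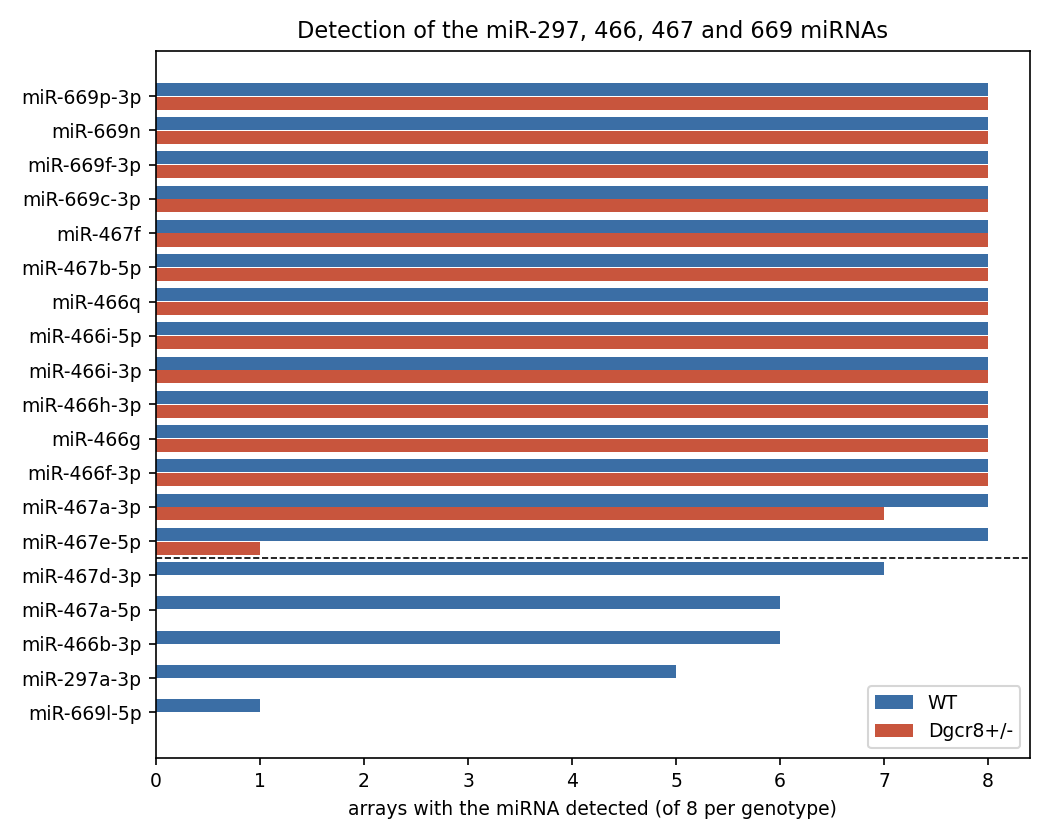
Number of arrays (of 8 per genotype, x axis) on which each of the 19 members detected on any array (y axis) was detected, in WT (blue) and *Dgcr8*+/- mice (red). The 12 members at the top were detected on all 16 arrays, and the 5 below the dashed line, under the limit of 8 arrays, were detected in WT mice and on no array of *Dgcr8*+/- mice.

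Of the 14 tested members, 12 were detected on all 16 arrays. MiR-467a-3p was detected on 8 WT and 7 *Dgcr8*+/- arrays. MiR-467e-5p lay just inside the limit, with 8 WT arrays and 1 *Dgcr8*+/- array, so it passed through the group in which it was higher. Just outside the limit were miR-467d-3p with 7 WT arrays, miR-466b-3p and miR-467a-5p with 6 each, and miR-297a-3p with 5, and none of these was detected in a *Dgcr8*+/- mouse. Their mean log2 signals in WT and *Dgcr8*+/- mice were 3.20 and 2.89 for miR-467d-3p, 3.53 and 2.78 for miR-466b-3p, 3.17 and 2.62 for miR-467a-5p, and 1.83 and 1.42 for miR-297a-3p. In *Dgcr8*+/- mice these signals were below what the software calls detected, and no fold change is given. MiR-669l-5p was detected on 1 WT array only. The opposite arms miR-467b-3p, miR-467e-3p, miR-467d-5p, miR-669f-5p, miR-466h-5p and miR-466f-5p were detected on no array, and only the miR-466i hairpin had both arms among the tested members.

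The members together made up 0.0840 to 0.114% of the summed signal of detected miRNAs in WT mice (median 0.0970%) and 0.0514 to 0.113% in *Dgcr8*+/- mice (median 0.0996%), so the genotypes overlapped. The lowest share came from *Dgcr8*+/- replicate 2. Each log2 signal below is the mean over the probes of a miRNA after quantile normalization between arrays. This step gives all arrays the same distribution of signals, so a change shared by most miRNAs is removed and each difference is relative to the rest of the array. Levels are not compared between miRNAs, since each has its own probes.

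In *Dgcr8*+/- mice 4 of the 14 members were lower and 3 were higher at a Benjamini-Hochberg adjusted p below 0.05 from limma, taken over all 495 tested miRNAs. The lower ones were miR-467b-5p, miR-467a-3p, miR-669f-3p and miR-467e-5p, and the higher ones were miR-669c-3p, miR-466h-3p and miR-466q. MiR-467e-5p passed the detection limit through the WT mice, so its call gives no support, and without it 3 of 13 members were lower and 3 were higher. Over all 495 miRNAs, 27.9% were lower and 28.3% were higher. The genotypes were unequally spread over 2 slides. With the slide as a block in the fit 5 of 14 members were lower (miR-467e-5p among them) and 0 were higher. The shares over all tested miRNAs were then 29.1% and 30.5%. At an unadjusted p below 0.05 from limma, 0 members were higher in that fit, against 160 of all tested miRNAs. As a log2 difference, *Dgcr8*+/- minus WT throughout, the median of the 14 members was 0.23 and that of all tested miRNAs was 0.04, with quartiles of −0.31 and 0.29 for the members and −0.27 and 0.27 for all. The log2 fold change was above 0 for 9 members and below 0 for 5.

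**Figure D2:**
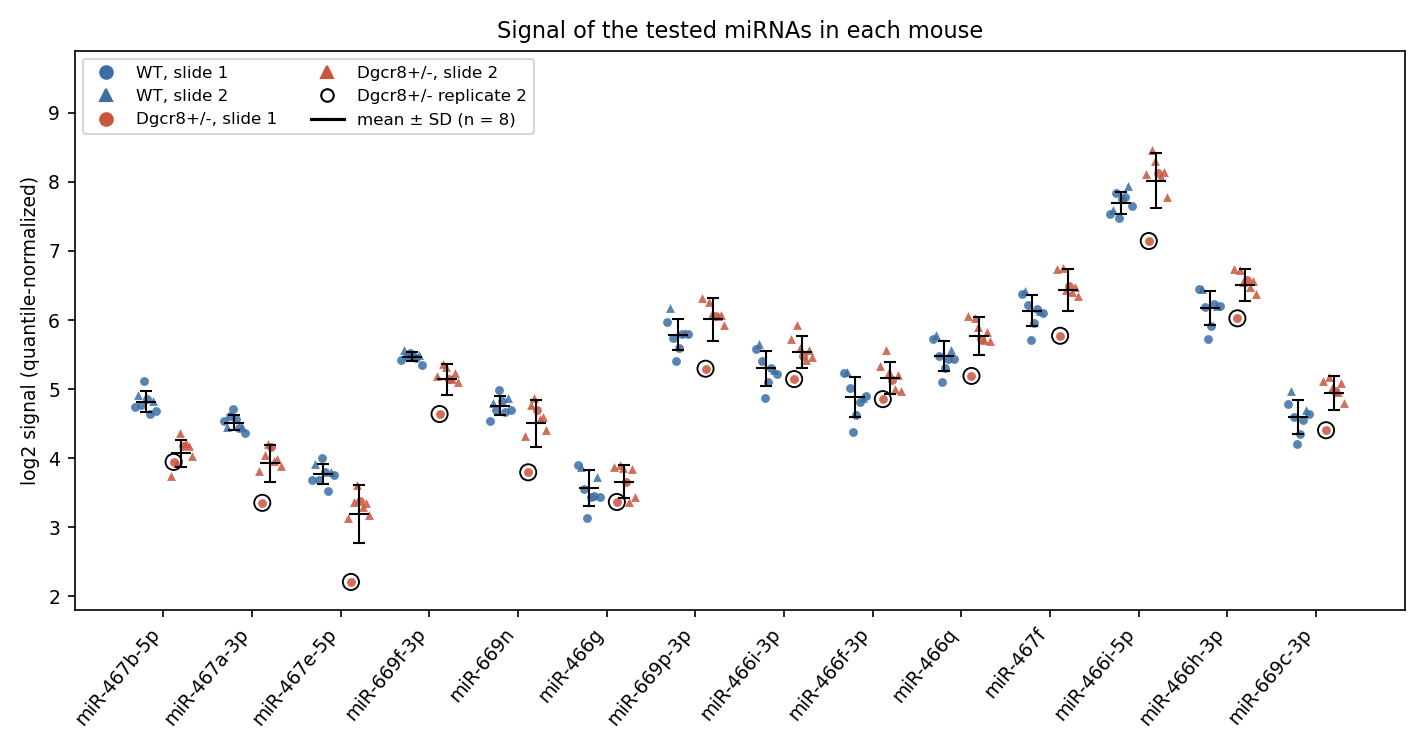
Log2 signal after quantile normalization (y axis) of the 14 tested members (x axis) in each of 8 WT (blue) and 8 *Dgcr8*+/- mice (red), with circles for slide 1, triangles for slide 2 and black bars for the mean ± SD. For miR-467b-5p and miR-467a-3p the 2 genotypes do not overlap, and the ringed *Dgcr8*+/- replicate 2 is the lowest *Dgcr8*+/- mouse for 12 of the 14.

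The largest fall among the members was that of miR-467b-5p, the product of a single gene within *Sfmbt2*. Its log2 signal ranged from 4.64 to 5.11 in WT mice (median 4.79) and from 3.75 to 4.36 in *Dgcr8*+/- mice (median 4.10). Even the highest *Dgcr8*+/- mouse lay below the lowest WT mouse. The log2 fold change was −0.75 (standard error 0.08, 95% interval −0.92 to −0.57, adjusted p = 2.49e-06 from limma), which puts the *Dgcr8*+/- signal at 0.597 of WT. Its 2 probes gave −0.77 and −0.74.

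MiR-467a-3p, named for the 10 copies of Mir467a, was lower as well. Its log2 signal was between 4.36 and 4.71 in WT mice (median 4.50) and between 3.35 and 4.21 in *Dgcr8*+/- mice (median 3.97), again with no overlap. The log2 fold change was −0.59 (standard error 0.10, 95% interval −0.79 to −0.38, adjusted p = 9.46e-05 from limma), or 0.665 of WT, and its 4 probes ranged from −0.62 to −0.58. Complete separation in this direction was seen for 2 of 14 members, against 17.2% of all tested miRNAs.

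MiR-467e-5p, also the product of a single gene within *Sfmbt2*, had a signal near background. Its log2 signal ranged from 3.52 to 4.00 in WT mice (median 3.78) and from 2.21 to 3.61 in *Dgcr8*+/- mice (median 3.32). All but 1 of the *Dgcr8*+/- mice lay below every WT mouse, but the software called it detected in only 1 of the 8, and the log2 means of the genotypes were 3.77 and 3.19. No p-value is printed for it. Its count among the lower members gives no support, since it passed the detection limit through the WT mice.

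MiR-669f-3p, whose gene is the 3rd miRNA gene from the low-coordinate end of *Sfmbt2*, had the narrowest spread in WT mice, with an SD of 0.06 (n = 8). It ranged from 5.35 to 5.56 in WT mice (median 5.48) and from 4.64 to 5.36 in *Dgcr8*+/- mice (median 5.17). Of the *Dgcr8*+/- mice, 7 of 8 lay below every WT mouse. MiR-669f-3p fell by 0.33 on the log2 scale (limma, standard error 0.08, adjusted p = 0.0023), to 0.797 of WT.

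None of the 3 rises passed the threshold with the slide as a block. MiR-669c-3p, whose gene also lies within *Sfmbt2*, ranged from 4.21 to 4.97 in WT mice (median 4.61) and from 4.40 to 5.17 in *Dgcr8*+/- mice (median 4.99). The genotypes overlapped, and 5 of 8 *Dgcr8*+/- mice lay above every WT mouse. MiR-669c-3p rose by 0.34 on the log2 scale (limma, standard error 0.11, adjusted p = 0.0178).

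MiR-466h-3p, from the same host gene, ranged from 5.72 to 6.46 in WT mice (median 6.20) and from 6.02 to 6.74 in *Dgcr8*+/- mice (median 6.56), with 6 of 8 above every WT mouse. It rose by 0.34 on the log2 scale (limma, standard error 0.11, adjusted p = 0.018). MiR-466q, the A and C repeat within *Tnik*, ranged from 5.10 to 5.79 in WT mice (median 5.46) and from 5.19 to 6.06 in *Dgcr8*+/- mice (median 5.78). Only 4 of 8 *Dgcr8*+/- mice lay above every WT mouse, and the rise was 0.29 on the log2 scale (limma, standard error 0.12, adjusted p = 0.0433). Leaving out 1 mouse at a time, miR-466q kept this call in 3 of 16 fits, while miR-669c-3p and miR-466h-3p kept theirs in all 16. For none of the 14 members did every *Dgcr8*+/- mouse lie above every WT mouse, which 7.07% of all tested miRNAs did.

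The other 7 tested members did not pass the threshold. MiR-466i-5p, from a gene outside *Sfmbt2*, ranged from 7.47 to 7.94 in WT mice (median 7.70) and from 7.14 to 8.47 in *Dgcr8*+/- mice (median 8.12). In 6 *Dgcr8*+/- mice it lay above every WT mouse and in 1 below every WT mouse, for a log2 fold change of 0.33 (95% interval 0.02 to 0.63, adjusted p = 0.0612 from limma). The opposite arm of that hairpin, miR-466i-3p, had a log2 fold change of 0.24 (95% interval −0.0067 to 0.48, adjusted p = 0.0852).

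The difference was 0.29 for miR-467f (95% interval 0.03 to 0.56, adjusted p = 0.0563 from limma), 0.28 for miR-466f-3p (0.01 to 0.54, adjusted p = 0.0651) and 0.22 for miR-669p-3p (−0.051 to 0.49, adjusted p = 0.147). Each of the 3 was above the WT median in 7 of 8 *Dgcr8*+/- mice. MiR-669n, the U and G repeat within *Slc30a7*, had a log2 fold change of −0.26 (−0.51 to −0.0014, adjusted p = 0.0757) and was below the WT median in 6 of 8 *Dgcr8*+/- mice. For miR-466g, whose gene lies within *Sfmbt2*, it was 0.10 (−0.15 to 0.35, adjusted p = 0.489). Of the 36 probes of the tested members, 34 had the same sign as their miRNA, and the 2 exceptions belonged to miR-466f-3p and miR-466g.

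**Figure D3:**
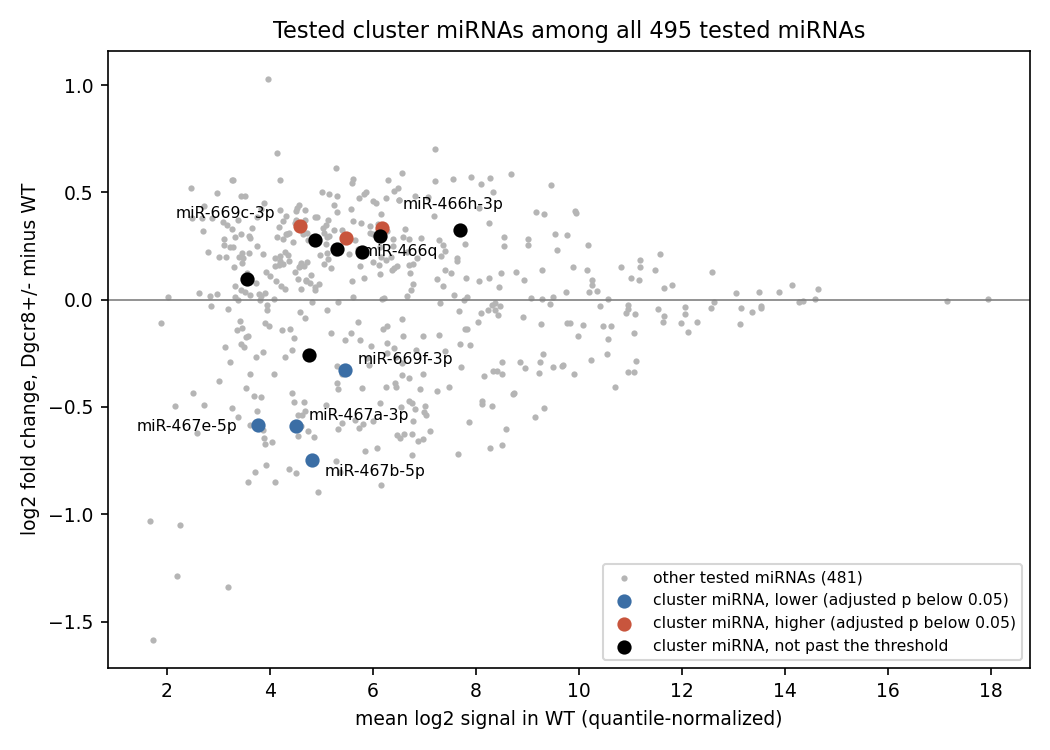
Log2 fold change (*Dgcr8*+/- minus WT, y axis) against the mean log2 signal in WT mice (x axis) for all 495 tested miRNAs, with the 14 members as large points. The 4 lower members (blue, among them miR-467e-5p, which passed the detection limit through the WT mice) and 3 higher members (red) lie within the cloud of the other 481 miRNAs (grey).

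Place of the gene and direction of change can be set side by side, as a description. The 8 members with genes only within *Sfmbt2* included all 4 lower ones and 2 of the 3 higher ones. Of their log2 fold changes 4 were below 0 and 4 above, with a median of −0.11. Among the lower ones was miR-467e-5p, which passed the detection limit through the WT mice. The sign of this median rests on that member, so it gives no support. The 5 members with a gene only outside *Sfmbt2* included 1 higher and 0 lower, with a median of 0.29. The shares over all tested miRNAs were 27.9% lower and 28.3% higher. With the slide as a block no member was higher in either place. In that fit miR-669n, whose gene lies outside *Sfmbt2*, was lower (−0.37, adjusted p = 0.0249 from limma). Along the host gene, miR-466f-3p, above 0, is named for the 2nd, 7th and 10th of the 71 miRNA genes, and miR-669f-3p, below 0, for the 3rd. The miR-467 genes of tested members lie between the 17th and the 52nd, and miR-669p-3p, above 0, is named for the 36th and 44th among them. MiR-669c-3p, miR-466g and miR-466h-3p, all above 0, come from the 57th, 65th and 66th.

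**Figure D4:**
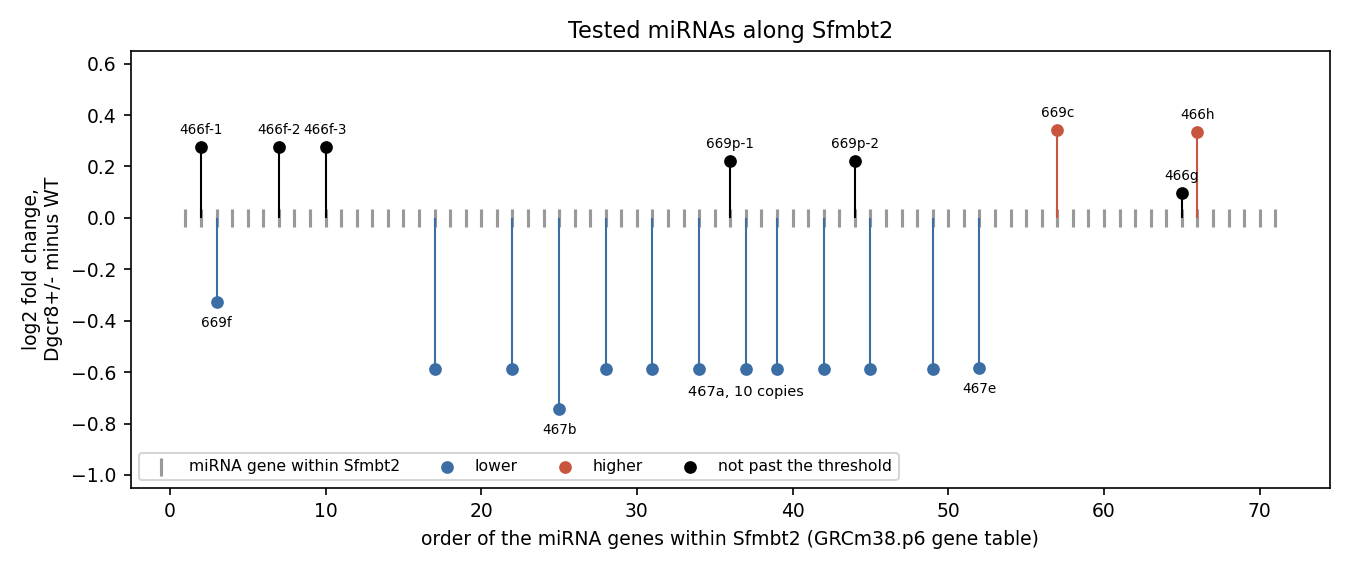
The 71 miRNA genes within *Sfmbt2* in their order along the chromosome (grey ticks, x axis), with the log2 fold change of the tested member of that name (y axis). Points are blue for lower, red for higher and black for not past the threshold, and the copies of 1 miRNA carry the same value because the array does not separate them. The miR-467 members and miR-669f-3p are below 0, and the miR-466f, miR-669p, miR-669c, miR-466g and miR-466h members, which lie on both sides of them and among them, are above it. Among the lower ones, miR-467e-5p passed the detection limit through the WT mice.

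The 16 arrays lay on 2 slides that were unequal in genotype, with 6 WT and 2 *Dgcr8*+/- arrays on slide 1 and 2 WT and 6 *Dgcr8*+/- arrays on slide 2. MiR-467b-5p, miR-467a-3p and miR-669f-3p had the same sign on both slides. The difference of the means on slide 1 and slide 2 was −0.74 and −0.79 for miR-467b-5p and −0.78 and −0.47 for miR-467a-3p. For miR-669f-3p it was −0.56 and −0.30. That of miR-467e-5p, which passed the detection limit through the WT mice and gives no support, was −0.95 and −0.54. With the slide as a block in the limma fit, miR-467b-5p, miR-467a-3p and miR-669f-3p stayed past the threshold, with log2 fold changes of −0.77, −0.63 and −0.43 (adjusted p = 1.67e-05, 0.000295 and 0.000365). MiR-669n then passed it too, at −0.37 (adjusted p = 0.0249).

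The rises were smaller within slides. On slide 1 and slide 2 the difference was 0.17 and 0.19 for miR-669c-3p, 0.18 and 0.24 for miR-466h-3p, and 0.05 and 0.19 for miR-466q. With the slide as a block, none of the 3 passed the threshold, with log2 fold changes of 0.18, 0.21 and 0.12 (adjusted p = 0.167, 0.134 and 0.353 from limma). Between the slides themselves, slide 2 was higher than slide 1 for all 14 members among *Dgcr8*+/- mice, and for 13 of 14 among WT mice, with miR-467a-3p as the exception. Slide 1 held only 2 *Dgcr8*+/- arrays, and 1 of them, replicate 2, was the lowest *Dgcr8*+/- mouse for 12 of the 14 members. Slide 2 held only 2 WT arrays. The slides were not compared in this way over all tested miRNAs.

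The array of *Dgcr8*+/- replicate 2, on slide 1, stood apart. It was the lowest *Dgcr8*+/- mouse for 12 of the 14 members, had the lowest hybridisation spike-in signal of all arrays (log2 signal 13.7, against 14.9 to 16.1 on the others) and detected the fewest miRNAs. Without this mouse 4 of 14 members were lower (miR-467e-5p among them) and 8 were higher, against 30.5% and 34.3% of all tested miRNAs. The log2 fold changes were then −0.73 for miR-467b-5p, −0.51 for miR-467a-3p and −0.26 for miR-669f-3p. That of miR-467e-5p was −0.44, which gives no support, since it passed the detection limit through the WT mice. With the slide block and this mouse left out, 4 members were lower (with miR-467e-5p) and 4 higher, against 27.1% and 27.9% of all. The higher ones were miR-466h-3p at 0.32 (adjusted p = 0.0377 from limma), miR-669c-3p at 0.29 (0.0394), miR-466i-5p at 0.41 (0.00872) and miR-467f at 0.31 (0.0445). Leaving out a WT mouse also moved the number higher, to 6 without WT replicate 2 and to 5 without WT replicate 1. Of all 495 tested miRNAs, 134 and 137 were higher in these fits.

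**Figure D5:**
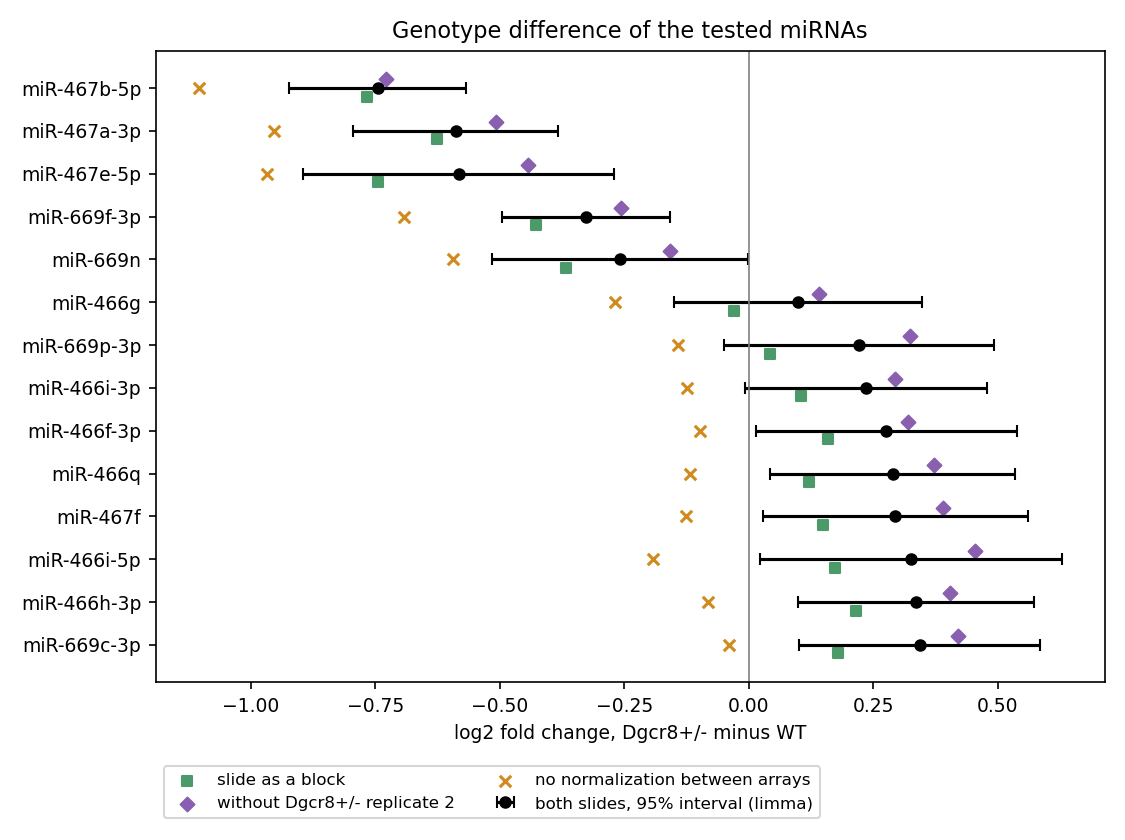
Log2 fold change (*Dgcr8*+/- minus WT, x axis) of the 14 tested members (y axis), with black points and 95% intervals from limma over all 16 arrays, green squares for the fit with the slide as a block, purple diamonds for the fit without *Dgcr8*+/- replicate 2, and orange crosses for signals without normalization between arrays. MiR-467b-5p, miR-467a-3p and miR-669f-3p stay below 0 in all 4 fits, as does miR-467e-5p, which passed the detection limit through the WT mice. Every member above 0 after quantile normalization lies below 0 without it.

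The scale also decided the sign of the rises. With no normalization between arrays the median log2 fold change of all 495 miRNAs was −0.39, and that of the members was −0.17, which is less of a fall than that of all miRNAs. In this fit 5 of 14 members were lower (miR-467e-5p among them), against 59.2% of all tested miRNAs. By limma 0 members were higher, also 0 of the 14 at an unadjusted p below 0.05. Of all tested miRNAs 0 were higher at an adjusted p below 0.05. The difference was −1.10 for miR-467b-5p, −0.95 for miR-467a-3p, −0.97 for miR-467e-5p and −0.69 for miR-669f-3p, whereas miR-669c-3p (−0.041), miR-466h-3p (−0.081) and miR-466q (−0.12) were near 0. The rises are thus relative to the bulk of miRNAs on an array. The differences of miR-467b-5p, miR-467a-3p and miR-669f-3p had the same sign on both scales, but their size depended on the treatment of dim signals. With a normexp background correction they were −0.19, −0.13 and −0.11, and that of miR-467e-5p, which gives no support, was −0.082. Normexp was run with an offset of 50, which shrinks log2 differences of dim signals in either direction. The rise of miR-669c-3p was then 0.10. From the deposited total signal per miRNA the difference was −1.21 for miR-467a-3p and −2.52 for miR-467e-5p.

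Other miRNAs with the same repeats were few. Among the tested miRNAs outside these families that had a RefSeq sequence (426 of the 495 tested had one, members included), 5 held UGUGUGU or GUGUGUG. Of these, miR-672-5p was lower, with a log2 fold change of −0.80 (adjusted p = 4.48e-05 from limma). The other 4 did not pass the threshold, at 0.21 for miR-1187, 0.03 for miR-206-3p, 0.24 for miR-3082-5p and 0.29 for miR-574-5p. MiR-574-3p was the single one with ACACACA or CACACAC, at 0.16 (adjusted p = 0.152). Among those with a RefSeq sequence, none shared a seed with the 4 tested members that had one. No miRNA gene of another family lies within *Sfmbt2* in the gene table.

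Some miRNAs are known to be made without Dgcr8, from short introns or from capped hairpins. Of 10 such miRNAs on a list, 6 were tested, and 4 were higher and 0 were lower, against 28.3% and 27.9% of all tested miRNAs, with a median log2 fold change of 0.25. The higher ones were miR-1224-5p (0.53), miR-484 (0.31), miR-877-3p (0.25) and miR-320-3p (0.25). With no normalization between arrays 0 of the 495 tested miRNAs were higher by limma, so these rises too are relative to the rest of the array.

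The LV wall holds several cell types, and fewer cells of a type and less miRNA per cell cannot be told apart in these samples. Of 28 marker miRNAs in 7 cell type lists, 24 were detected on all arrays. Of the markers of cells with motile cilia, such as the ependyma, 5 of 7 were detected on all arrays and miR-449c-5p and miR-449b on none, and none was past the threshold. Their summed signal before normalization, on a log2 scale, was 8.55 to 9.75 in WT and 8.63 to 9.53 in *Dgcr8*+/- mice. The choroid plexus list (2 of 3 on all arrays, miR-204-3p on none) ranged from 8.34 to 9.07 in WT and from 7.03 to 8.43 in *Dgcr8*+/- mice, with 1 marker lower. The red blood cell list (2 of 3 on all arrays) ranged from 8.34 to 9.26 and from 7.24 to 8.63, and the microglia and immune list (4 of 4) from 6.75 to 7.43 and from 6.12 to 6.94, with 1 marker lower in each. The neuron list (4 of 4) ranged from 14.28 to 14.86 and from 13.75 to 14.45, with 1 marker lower. The oligodendrocyte list (3 of 3) ranged from 12.09 to 13.22 and from 11.69 to 12.59, with 1 marker higher, and the vascular list (4 of 4) from 9.83 to 10.53 and from 9.12 to 10.03, with 2 markers higher. These summed signals were not normalized between arrays. On that scale 59.2% of the 495 miRNAs were lower by limma and 0 were higher. A lower range by itself therefore does not set a list apart from the rest of the array. The counts of lower and higher markers come from the fit after quantile normalization. In that fit 27.9% of the 495 were lower and 28.3% were higher. The part of these cell types in the change of the members was not tested.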

How the data were processed

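The authors deposited the scanner output of 16 Agilent 1-colour miRNA arrays, 8 WT and 8 *Dgcr8*+/- mice labelled as biological replicates. The deposited spot intensity was background-corrected but not normalized between arrays. The file headers name Feature Extraction 10.7.3.1 and the labels give 10.5.1.1. A deposited table of total intensity per miRNA holds values identical to those in the scanner output. No value column was left without a sample (0 columns).

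Outlier-marked spots were dropped, the remaining spots were averaged per probe, probes were quantile-normalized as in the study's methods, and probes of a miRNA were averaged. Values under 1 were raised to 1 and log2 was taken. MiRNAs detected on at least 8 of 16 arrays were compared with limma 3.58.1 in R 4.3.3, in place of the methods' t-test, with Benjamini-Hochberg adjustment over all 495, and the fit was tested on simulated data. The slide was read from the array barcode. The number of arrays limits the precision.

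Members and lists were chosen with earlier results of these data known. Named were the 8 brightest tested members, up to 8 falls and 8 rises past the threshold, members detected on fewer than 16 arrays or near the detection limit, and their opposite arms. MiR-669n, miR-466g, miR-669l-5p and miR-297a-3p fall outside this rule and were named after their values were seen. Gene positions and sequences came from RefSeq (GRCm38.p6), which matched 426 of the 495 tested miRNAs by name. Mir297-1 was matched through its synonym.

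Alternatives covered the normalization (none, percentile scaling, cyclic loess, labelling spike-ins), the background (normexp with an offset of 50 on the median signal, since the files hold no mean signal column), the summary of spots and probes, the floor, the detection limit, the test, the slide, a replicate block and leaving out each array. The fit with the slide as a block and without *Dgcr8*+/- replicate 2 was added after the data were seen.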

Additional observations from a re-analysis of the deposited data

Results flagged for a closer look

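Within each genotype, the highest and the lowest of the 8 mice were set against the others for each of the 14 tested members, and a mouse was marked when its gap to the nearest other exceeded 0.526 of the range. Chance marks about 1 group in 20, or 1.4 of the 28 groups here, and 6 were marked. All 6 were the low value of *Dgcr8*+/- replicate 2. Its log2 signal was 3.35 for miR-467a-3p, against 3.82 to 4.21 in the other *Dgcr8*+/- mice. For miR-467e-5p it was 2.21, against 3.13 to 3.61. For miR-669f-3p it was 4.64, against 5.10 to 5.36. For miR-669p-3p it was 5.29, against 5.93 to 6.31, for miR-466q 5.19, against 5.70 to 6.06, and for miR-467f 5.77, against 6.34 to 6.75. The 6 marks come from 1 array and are not independent of each other. This array also had the lowest hybridisation spike-in signal, and the part of that in the low values was not tested.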

How the results depend on the processing

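MiR-467b-5p and miR-669f-3p stayed lower and past the threshold in all 18 alternatives of the fit, and miR-467a-3p in the 17 in which it was tested. Their sizes moved, and the smallest falls, −0.19, −0.13 and −0.11 for miR-467b-5p, miR-467a-3p and miR-669f-3p, came with normexp. MiR-467e-5p passed the detection limit through the WT mice, was not tested with detection on all 16 arrays, and shows nothing about stability. The rises of miR-669c-3p and miR-466h-3p passed the threshold in 13 of 18 and that of miR-466q in 7 of 18. The number lower moved with the detection limit. With detection on all 16 arrays 2 of 12 members were lower, against 114 of 430 tested miRNAs. This limit drops miR-467a-3p and miR-467e-5p, both lower, because *Dgcr8*+/- arrays did not detect them, so it takes out falls. With detection on at least 1 array 9 of 19 were lower, against 160 of 565. The 5 members this limit adds were detected in WT mice only, so their falls give no support. With no filter 7 of 61 members were lower and 0 higher, against 159 and 124 of 1881.

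The number higher was 0 with no normalization (5 lower), 0 with labelling spike-ins (5 lower) and 0 with the slide as a block (5 lower). It was 8 with the 75th percentile of probes detected on all arrays (4 lower) and 1 with the 75th percentile of all probes (4 lower). With cyclic loess it was 6 (4 lower). In the same order, 0, 0, 151, 210, 114 and 154 of all 495 tested miRNAs were higher. The numbers lower over all were 293, 264, 144, 126, 151 and 142. At an unadjusted p below 0.05 from limma, the number higher was 0 with no normalization, spike-ins and the slide block, and 6 with no filter. Over all miRNAs it was 0, 0, 160 and 227. The median over all tested miRNAs was −0.39 with no normalization, −0.38 with spike-ins and 0.14 with the percentile of detected probes. The median of the members, 0.23, became −0.17 with no normalization, −0.16 with spike-ins and 0.074 with the slide as a block. It was −0.26 with detection on at least 1 array, which adds members detected in WT mice only, and 0 with no filter. Within slide 1 and slide 2 it was −0.0058 and 0.14. With no normalization and with labelling spike-ins, respectively, the log2 fold changes that changed sign were −0.098 and −0.091 for miR-466f-3p, −0.27 and −0.26 for miR-466g, −0.081 and −0.074 for miR-466h-3p, −0.12 and −0.12 for miR-466i-3p, −0.19 and −0.19 for miR-466i-5p, −0.12 and −0.11 for miR-466q, −0.13 and −0.12 for miR-467f, −0.041 and −0.034 for miR-669c-3p, and −0.14 and −0.14 for miR-669p-3p. MiR-466g was −0.031 with the slide as a block. The cause of these changes beyond the scale itself was not tested.

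Leaving out each array in turn gave 4 to 5 lower and 2 to 8 higher members, with a median of 0.17 to 0.31. Of all 495 tested miRNAs, 133 to 151 were lower and 126 to 170 were higher. The number of members higher was 8 without *Dgcr8*+/- replicate 2, 6 without WT replicate 2 and 5 without WT replicate 1. The numbers over all were 170, 134 and 137. MiR-466q passed the threshold in these 3 of the 16 fits only. MiR-669n was the fifth lower member, without *Dgcr8*+/- replicate 4. The replicate block gave 4 lower and 3 higher members, with miR-466q lost (adjusted p = 0.0742) and miR-466i-5p gained (adjusted p = 0.0453). Mice of the same replicate number were not paired in the main fit, and the labels name no pairs. Their correlations ran from −0.14 to 0.50, with 5 of 8 over 0.1, and 3 of 8 were highest with their own number. These values do not settle whether the numbers pair the mice.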

Other observations

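A difference between miRNAs of the same array does not depend on how that array is scaled. The members with the largest rise and the largest fall, miR-669c-3p and miR-467b-5p, both have their gene within *Sfmbt2* and were picked for this after their values were seen. Their log2 fold changes lay 1.09 apart. The gap was 1.06 with no normalization and with each scaling to a percentile or to the labelling spike-ins, and 0.95 with the slide as a block. Over all alternatives it ran from 0.288 with normexp, whose offset shrinks differences of dim signals, to 1.42 with the deposited total signal per miRNA. It was not tested, since the pair was chosen for it.

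Among WT mice, replicate 4 was the lowest for 9 of the 14 members and the highest for 4, the latter being miR-467a-3p, miR-467b-5p, miR-467e-5p and miR-669n. These 4 have log2 fold changes below 0 in the comparison of the genotypes.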
